A study of Mus musculus with 3 samples.

Results

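RNA-seq values were described for 8 genes grouped under the membrane and membrane skeleton of the red cell, of which 1, Car2, encodes an enzyme of the cytosol. They were measured in BM Ly6G+ myeloid cells, where AAV-Ctrl had 2 libraries and AAV-IL-27 had 1. The genes were Slc4a1, Sptb, Ank1, Epb42, Rhag, Rhd, Kel and Car2. They were picked by symbol, with their fall in these same libraries already known, and all 8 were found among 16072 named genes. The 3 libraries came from C57BL/6 mice that carried subcutaneous B16.F10 melanoma from 1 week before an intramuscular vector, and the BM was taken 3 weeks after the vector. The labels call the cells Ly6G+, and the study uses both Ly6G+ and Gr-1+ for them. The mice of the study were 6 to 10 weeks old. Both groups thus shared the strain, the tumour, the route and an AAV2/8 vector, and they differed in the cargo, which was empty in AAV-Ctrl and murine IL-27 (EBI3 and p28 joined by a linker, under a CAG promoter) in AAV-IL-27. The design text counts 4 mice but describes 3, and 3 libraries were analysed here. The deposited table holds 1 further column, named as an AAV-IL-27 replicate, which fits none of the listed samples and was not analysed here. For RNA-seq of BM Gr-1+ cells 3 weeks after the vector, the study's figure legend gives n = 2 per group. Replicate error could not be had from the single AAV-IL-27 library analysed, so p-values are absent and values stand beside the spread of the AAV-Ctrl libraries.

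A red cell has no nucleus and keeps its shape through a protein net under the membrane. Filaments of spectrin, whose beta chain is encoded by Sptb, make up this net. Ankyrin (Ank1) ties beta-spectrin to band 3 (Slc4a1), the chloride-bicarbonate exchanger of the membrane, and protein 4.2 (Epb42) strengthens that tie. The Rh proteins (Rhag, Rhd) sit in the same ankyrin-anchored complex. Kell (Kel) is a surface endopeptidase that carries a blood group antigen and is bound to Xk. Carbonic anhydrase 2 (Car2) is a soluble enzyme of the cytosol, not a membrane or skeleton protein, and supplies the bicarbonate that band 3 exchanges. These genes are switched on as erythroblasts mature in the BM, and GATA1 and KLF1 are erythroid transcription factors that bind GATA and CACCC motifs.

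The promoters of the 8 genes, which were chosen with their fall already known, were examined for these motifs. RefSeq windows of 300 bases (250 before the RefSeq start and 50 after it, GRCm38.p6) were at hand for 5 of the 8 genes, namely Epb42, Kel, Rhag, Rhd and Sptb. For Kel, Rhag, Rhd and Sptb, the 250 bases before the RefSeq start are printed 5′ to 3′ on the strand of the gene, with matches to either motif in capitals. The GATA motif was searched as AGATAA or TGATAA, with AGATAG and TGATAG also taken, and the CACCC-type motif as CCNCNCCC, each on both strands. No GATA match overlapped a CACCC-type match in these windows.

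Kel (chr6:41704326-41704575, minus strand): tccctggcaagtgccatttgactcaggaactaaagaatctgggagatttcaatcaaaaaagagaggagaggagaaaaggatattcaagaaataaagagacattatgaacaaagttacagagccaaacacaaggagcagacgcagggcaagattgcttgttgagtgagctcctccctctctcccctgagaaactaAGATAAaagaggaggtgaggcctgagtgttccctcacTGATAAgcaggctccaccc
Rhag (chr17:40810899-40811148, plus strand): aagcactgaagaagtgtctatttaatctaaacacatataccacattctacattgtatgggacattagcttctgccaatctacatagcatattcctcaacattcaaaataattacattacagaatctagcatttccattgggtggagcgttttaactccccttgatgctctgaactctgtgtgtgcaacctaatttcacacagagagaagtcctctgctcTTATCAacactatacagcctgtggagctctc
Rhd (chr4:134864286-134864535, plus strand): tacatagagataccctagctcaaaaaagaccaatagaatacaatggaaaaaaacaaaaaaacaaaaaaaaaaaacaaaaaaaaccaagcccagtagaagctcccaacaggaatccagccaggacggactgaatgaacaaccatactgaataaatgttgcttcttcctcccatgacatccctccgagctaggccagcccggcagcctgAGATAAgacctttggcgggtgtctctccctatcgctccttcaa
Sptb (chr12:76710548-76710797, minus strand): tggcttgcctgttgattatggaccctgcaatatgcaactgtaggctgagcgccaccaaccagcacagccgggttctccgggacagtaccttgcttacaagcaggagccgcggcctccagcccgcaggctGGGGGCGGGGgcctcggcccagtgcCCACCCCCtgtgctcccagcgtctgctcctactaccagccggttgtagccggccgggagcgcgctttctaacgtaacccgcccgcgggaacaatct

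A GATA motif was present in the 300-base windows of 5 of these 5 genes, and in 29.8% of all 32851 promoter windows. Distances depend on the start that is used, because the GENCODE gene start lies before the RefSeq start by 23 bases in Rhag, by 14 in Kel and by far more in Epb42, and at the same base in Rhd and Sptb. Kel held 2 matches, whose first bases lay 56 and 19 bases before the RefSeq start (42 and 5 before the GENCODE start). Rhd held 1 at 43 bases before either start, and Rhag 1 at 31 bases before the RefSeq and 8 before the GENCODE start. The match of Epb42 lay 226 bases before the RefSeq start and 31 before the GENCODE start. In Sptb the GATA match began 12 bases after the start and is therefore outside the printed stretch. Among the other red cell membrane and skeleton genes listed below, 10 of 31 windows (32.3%) held a GATA motif, and among relatives of the 8 genes 7 of 46 (15.2%). The CACCC-type motif was found in Sptb (3 overlapping or neighbouring matches, the farthest 121 bases before the start) and just past the start of Rhd, which made 2 of 5 windows against 49.5% of all windows. A match describes letters in the window and was not tested as a binding site.

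**Figure D1:**
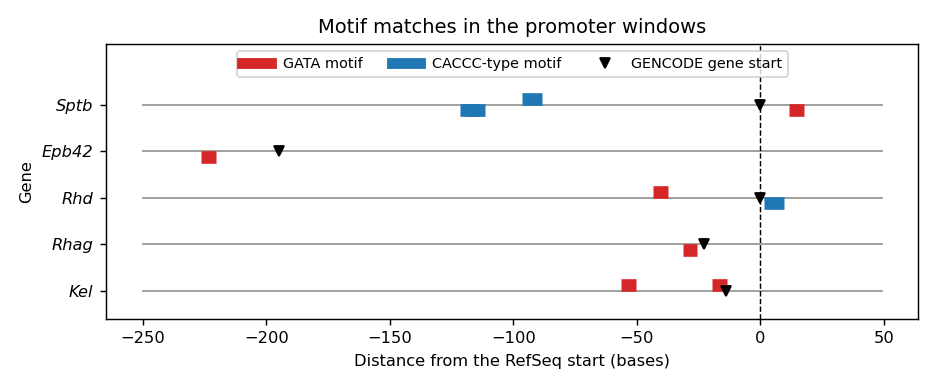
Motif matches in the 300-base promoter windows of 5 genes, by distance in bases from the RefSeq start (0, dashed line), with the GENCODE gene start as a black triangle. Red marks GATA motifs and blue CACCC-type motifs, above the line on the strand of the gene and below it on the other strand. Measured from the GENCODE start, the GATA matches of Kel, Rhag, Rhd and Epb42 begin 5 to 43 bases before it, and that of Sptb 12 bases after it. From the RefSeq start, the match of Epb42 is 226 bases away.

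The cells were first checked against their label. Levels are FPKM, fragments scaled to transcript length and to the mapped total of the library, and 3 values in a row follow the library order AAV-Ctrl 1, then AAV-Ctrl 2, then AAV-IL-27. The neutrophil gene Ly6g was at 711.76, 766.11 and 586.29 FPKM, and 0 of 11 neutrophil genes were lower or higher by the rule used below. Estimated depth was similar, at about 18.7, 19.1 and 18.9 M fragments (M, mega), and 10 genes used by every cell had a median log2 difference of -0.15. Genes of other BM cells were present as well, and some were lower in AAV-IL-27 by that rule. It called 2.32% of the 9130 genes whose mean FPKM reached 1. These lists were chosen with earlier results known, so nothing is read from their counts. Of 14 genes of BM macrophages, 12 were lower, with a summed FPKM of 857, 845 and 242. Of 7 megakaryocyte genes whose mean FPKM reached 1, 4 were lower (sum of the list 57.08, 63.89 and 11.87 FPKM), and of 4 such B cell genes 4 were (27.68, 35.06 and 4.38 FPKM). Among 6 monocyte genes and 5 genes of basophils, eosinophils and mast cells, 0 were lower. The part of these cells in the results below was not tested.

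The 8 red cell genes had FPKM values between 3.48 and 83.28 in the AAV-Ctrl libraries and between 0.44 and 7.66 in AAV-IL-27, and each gene was lower in AAV-IL-27 than in either AAV-Ctrl library, as were 41.9% of the 9130 genes whose mean FPKM reached 1. Expressed as a share of the AAV-Ctrl mean, the AAV-IL-27 values ran from 8.37% (Rhd) to 17.4% (Sptb). On the log2(FPKM + 1) scale, which understates the change of low genes, the median difference between AAV-IL-27 and the AAV-Ctrl mean was -1.93, against -0.01 over the 9130 genes. A gene was counted as lower when it was under each AAV-Ctrl library by 1 log2 unit or more. This held for 8 of the 8 genes and for 2.32% of the 9130 genes, and nothing is read from the count, since the genes were chosen with this contrast known. The summed FPKM of the 8 genes was 183.5, 165.21 and 18.34. In bulk RNA, fewer erythroid cells among the Ly6G+ cells and less of these transcripts per cell cannot be told apart. Nor can fewer erythroid cells in the BM and a purer selection of Ly6G+ cells in the 1 AAV-IL-27 library. The purity of the cells was not tested.

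**Figure D2:**
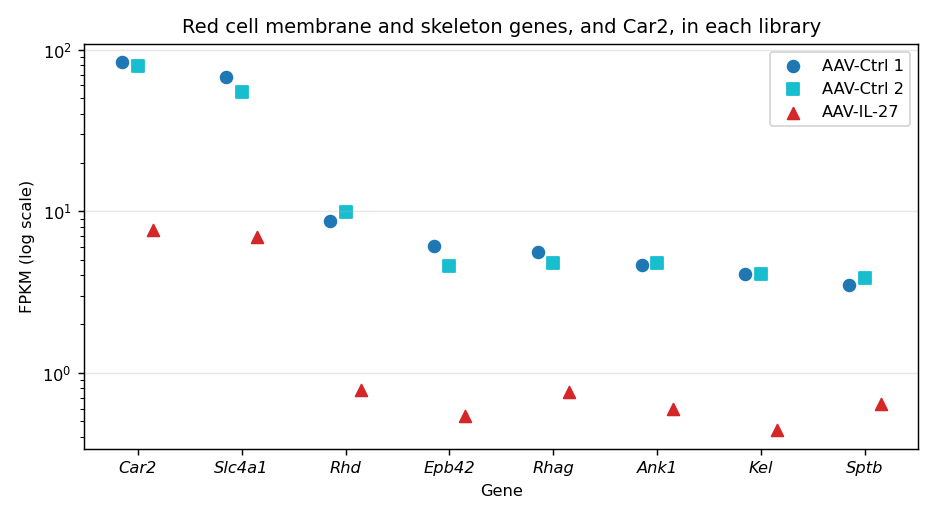
FPKM on a log axis for the 8 genes, ordered by their AAV-Ctrl mean, with 1 point per library. The AAV-IL-27 triangle lies below both AAV-Ctrl points for each gene, and Car2 and Slc4a1 stand above the other 6 genes in all 3 libraries.

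Band 3 and its partner protein 4.2 are described first, as the membrane end of the ankyrin tie. Gene positions are those of GENCODE M21 on GRCm38 (mm10). Slc4a1 (NCBI Gene 20533, chromosome 11 from 102348824 to 102366203, minus strand) was at 67.64, 54.51 and 6.92 FPKM. Its AAV-Ctrl mean was 61.1 ± 9.28 (SD, n = 2), and the log2 difference was -2.96. Both AAV-Ctrl libraries were far above AAV-IL-27, and they also differed from each other. These values correspond to an estimated 5673, 4670 and 587 fragments, with an exact 95% Poisson interval from 540 to 636 in AAV-IL-27. Intervals on fragments cover counting error only. Epb42 (NCBI Gene 13828, chromosome 2 from 121017891 to 121037072, minus strand) was at 6.10, 4.55 and 0.54 FPKM. With an AAV-Ctrl mean of 5.33 ± 1.10 (SD, n = 2), its log2 difference was -2.03, and the 41 fragments estimated in AAV-IL-27 have an interval from 29.4 to 55.6. Epb42 kept a similar proportion to band 3, at 9.02%, 8.35% and 7.80% of the Slc4a1 FPKM.

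The beta-spectrin and ankyrin genes were lower too, with Sptb the least so by value among the 8. Sptb (NCBI Gene 20741, chromosome 12 from 76580488 to 76710547, minus strand) was at 3.48, 3.86 and 0.64 FPKM. The AAV-Ctrl mean was 3.67 ± 0.269 (SD, n = 2) and the log2 difference -1.51. The gap to AAV-IL-27 was wider than the gap between the AAV-Ctrl libraries. Its long transcript gave more fragments than its FPKM would lead one to think, an estimated 672, 762 and 125, with an interval from 104 to 149 in AAV-IL-27. The gene Plekhg3 lies on the opposite strand at this locus, and exons of some annotated isoforms of the pair overlap, while 1 RefSeq transcript of each gene, compared base by base, shared 0 exon bases. Ank1 (NCBI Gene 11733, chromosome 8 from 22974844 to 23150497, plus strand) was at 4.63, 4.79 and 0.60 FPKM. The AAV-Ctrl mean of 4.71 ± 0.113 (SD, n = 2) and a log2 difference of -1.84 describe a gene that was nearly equal in the AAV-Ctrl libraries. It has several annotated isoforms, so no fragment number was estimated. Exons of the antisense gene Gm15816 overlap those of Ank1, and since the use of strand in counting is not given, reads of the pair cannot be told apart.

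The ratio of Ank1 to Sptb FPKM was 1.33, 1.24 and 0.938. It had its lowest value in AAV-IL-27, by a margin over the nearer AAV-Ctrl library that exceeded the gap between the AAV-Ctrl libraries. Ank1 has no fragment estimate, so this ratio has no counting interval and its change is not resolved.

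The Rh genes, which encode related membrane proteins, were of unequal level in the AAV-Ctrl libraries and almost equal in AAV-IL-27. Rhag (NCBI Gene 19743, chromosome 17 from 40811126 to 40840754, plus strand) encodes the Rh-associated glycoprotein, an ammonia and gas channel, and was at 5.57, 4.78 and 0.76 FPKM. Its AAV-Ctrl mean was 5.18 ± 0.559 (SD, n = 2) and its log2 difference -1.81. Rhd (NCBI Gene 19746, chromosome 4 from 134864536 to 134896172, plus strand), the single mouse counterpart of the human Rh blood group genes, was at 8.70, 9.94 and 0.78 FPKM. With an AAV-Ctrl mean of 9.32 ± 0.877 (SD, n = 2) and a log2 difference of -2.53, it had by value the lowest share left of the 8 genes. The counting interval of that share overlapped those of Car2, Slc4a1, Epb42, Rhag and Kel. The ratio of Rhag to Rhd FPKM was 0.640, 0.481 and 0.974. Only an estimated 33 fragments of Rhag and 21 of Rhd were behind the AAV-IL-27 values, with intervals from 22.7 to 46.3 and from 13 to 32.1. The intervals of the share left overlapped, at 10.1 to 21.1% for Rhag and 5.02 to 12.7% for Rhd. Such overlap does not decide whether their ratio changed, and no interval was estimated for the ratio itself.

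Kel (NCBI Gene 23925, chromosome 6 from 41686330 to 41704339, minus strand) was at 4.10, 4.08 and 0.44 FPKM, the last being the lowest level of the 8 in AAV-IL-27. The AAV-Ctrl mean was 4.09 ± 0.0141 (SD, n = 2), the log2 difference was -1.82, and an estimated 21 fragments remained in AAV-IL-27 (interval 13 to 32.1). Xk, which encodes the membrane protein that Kell is bound to, was at 3.6, 3.69 and 2.87 FPKM, or 78.7% of the AAV-Ctrl mean. The ratio of Kel to Xk FPKM was 1.14, 1.11 and 0.153. Kel was thus close to Xk in level in both AAV-Ctrl libraries and far below it in AAV-IL-27.

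Car2 (NCBI Gene 12349, chromosome 3 from 14886273 to 14900770, plus strand) stood highest of the 8 genes, at 83.28, 78.70 and 7.66 FPKM. Its AAV-Ctrl mean was 81.0 ± 3.24 (SD, n = 2), and its log2 difference from that mean was -3.24. Measured against the nearer AAV-Ctrl library, its difference of -3.20 was the lowest of the 9130 genes. By level, Car2 stood at rank 855 and 892 of 16072 genes in the AAV-Ctrl libraries and at rank 5044 in AAV-IL-27. The AAV-IL-27 value rests on an estimated 250 fragments, with an interval from 220 to 283. Car2 is also used by osteoclasts, which need acid to dissolve bone. Of 7 osteoclast genes, 5 had a mean FPKM under 1, and Calcr, Oscar and Dcstamp were listed at 0 in AAV-IL-27 (Calcr and Dcstamp also in AAV-Ctrl 2). Ocstamp was at 0.06, 0 and 0.03 FPKM, and Atp6v0d2 was higher in AAV-IL-27 than in both AAV-Ctrl libraries, at 0.85, 0.76 and 1.21 FPKM. The remaining genes, Acp5 (17.13, 13.77 and 3.12 FPKM) and Ctsk (4.95, 2.46 and 0.34 FPKM), were lower in AAV-IL-27, and the part of osteoclasts in the value of Car2 was not tested. The summed osteoclast FPKM was 23.34, 17.02 and 4.70.

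The order of levels in AAV-Ctrl was Car2, Slc4a1, Rhd, Epb42, Rhag, Ank1, Kel and Sptb. The AAV-Ctrl values of Car2 and Slc4a1 did not overlap each other, nor did those of Slc4a1 and Rhd or of Rhd and Epb42. Epb42, Rhag and Ank1 overlapped and could not be ordered. In AAV-IL-27, Car2 and Slc4a1 again came first, and the other 6 genes lay between 0.44 and 0.78 FPKM.

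The shares left in AAV-IL-27 were close but not equal beyond counting error. The ratio of AAV-IL-27 to AAV-Ctrl fragments, with exact 95% binomial intervals, was estimated for 7 of the 8 genes (without Ank1, which was at 12.7% of the AAV-Ctrl mean). Car2 was at 9.46% (8.30 to 10.7) and Slc4a1 at 11.3% (10.4 to 12.3). Sptb was at 17.4% (14.4 to 20.9), and its interval lay above those of Car2, Slc4a1, Rhd (8.37%, 5.02 to 12.7) and Epb42 (10.1%, 7.17 to 13.8). The intervals of Rhag (14.7%, 10.1 to 21.1) and Kel (10.8%, 6.74 to 17.1) overlapped that of Sptb. Such intervals compare these libraries and hold no difference between AAV-IL-27 mice.

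Between themselves, the AAV-Ctrl libraries also differed from each other in some of these genes. Slc4a1 in AAV-Ctrl 2 was at 80.6% of AAV-Ctrl 1 (counting interval 77.5 to 83.8), Epb42 at 74.6% (64.6 to 85.7) and Rhag at 85.8% (71.0 to 104). Car2 was at 94.5% (89.5 to 99.8), Kel at 99.5%, Ank1 at 103%, Sptb at 111% (99.9 to 123) and Rhd at 114% (95.5 to 136). The genes therefore did not shift as a block between AAV-Ctrl mice. On the log2(FPKM + 1) scale, 0 of the 8 genes were lower in AAV-Ctrl 2 by at least 1, as were 0.0438% of the 9130 genes. By at least 0.15, 3 of the 8 genes (Slc4a1, Epb42 and Rhag) were lower there, as were 12.5% of the 9130 genes, and 1 (Rhd) was higher by as much, as were 14.9%. Globin transcripts, which encode haemoglobin, moved further in the same direction as Slc4a1, with a summed FPKM of 20186 in AAV-Ctrl 1 and 13595 in AAV-Ctrl 2. Alas2, the first enzyme of haem synthesis in erythroblasts, was at 111.40 and 70.33 FPKM. Klf1, at 7.18 and 7.94 FPKM, and Gata1, at 3.83 and 4.12 FPKM, lay on the other side with Rhd and Sptb. These rises are not resolved, since 0 of the 7 genes with estimated fragments had a counting interval above 100%. No interval was estimated for Klf1 and Gata1.

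**Figure D3:**
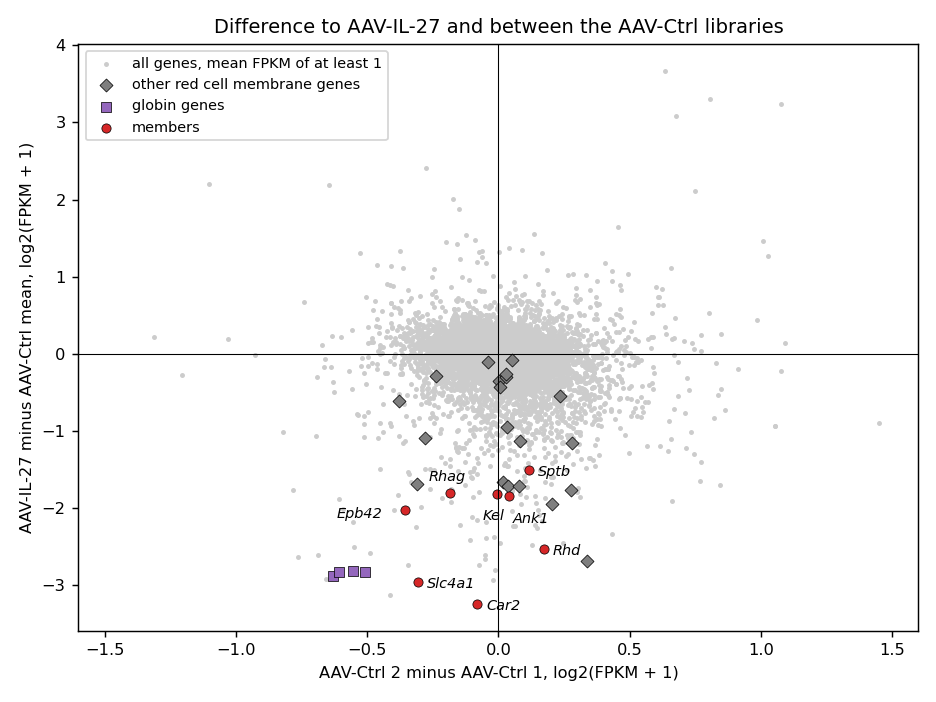
Each point is a gene whose mean FPKM reached 1 (light grey), with 20 other red cell membrane genes as diamonds. The horizontal axis gives AAV-Ctrl 2 minus AAV-Ctrl 1 and the vertical axis AAV-IL-27 minus the AAV-Ctrl mean, both in log2(FPKM + 1). The 8 members (red) lie between -3.24 and -1.51 on the vertical axis and on both sides of 0 on the horizontal one, with Slc4a1 and Epb42 nearest to the globin genes (purple) at the left.

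Other genes of the red cell membrane and skeleton, listed by name, were split. All 27 were in the table, and 22 reached a mean FPKM of 1. Of these, 11 were lower than both AAV-Ctrl libraries by at least 1 log2 unit, against 2.32% of the 9130 genes. By the same measure 0 were higher, against 0.307%. The list was chosen with earlier results of these data known. Some of its genes were under 1 FPKM in AAV-IL-27 and reached that mean through the AAV-Ctrl libraries. Nothing is therefore read from the count. The median log2 difference of the 22 genes was -1.11. Among the skeleton genes, 4 of 8 were lower, among them the next 3. Tmod1, which caps the short actin filaments of the net, was at 3.97, 3.01 and 0.39 FPKM. Add2, an adducin that joins spectrin to actin, was at 2.92, 3.02 and 0.21 FPKM, and Dmtn, an actin bundling protein, at 4.19, 4.26 and 0.66 FPKM.

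The skeleton genes that were not lower by this rule were Add1, Epb41, Stom and Mpp1. How widely each gene is used was not measured here. Add1, the widely expressed adducin, was at 111.74, 115.88 and 108.01 FPKM, a log2 difference of -0.07. Epb41, which encodes protein 4.1 and links spectrin to glycophorin C, was at 60.44, 46.20 and 34.15 FPKM, a log2 difference of -0.62, and Stom, which encodes stomatin, had -0.94. Mpp1, the palmitoylated scaffold p55, was at 78.1% of the AAV-Ctrl mean. For the adducins, the erythroid member was at 7.07% of its AAV-Ctrl mean and the widely used member at 94.9%.

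Gypc, which encodes glycophorin C, was lower too, at 4.83, 5.15 and 0.83 FPKM. Of 7 channel and transporter genes that reached a mean FPKM of 1, 4 were lower. The water channel gene Aqp1 was at 13.64, 17.48 and 1.56 FPKM, and the nucleoside transporter gene Slc29a1 at 7.81, 9.68 and 1.85 FPKM. The potassium channel gene Kcnn4 had a log2 difference of -1.16 and the urea transporter gene Slc14a1 one of -1.13. The glucose transporter gene Slc2a1 was at 80.6% of the AAV-Ctrl mean. Among surface antigen genes, 5 of 9 reached a mean FPKM of 1 and 1 of them was lower, Ermap, at 5.32, 6.28 and 0.76 FPKM. Cd47, which marks cells as self and is made by many cells, had a log2 difference of -0.11, next to Add1 the value closest to 0 in the list.

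**Figure D4:**
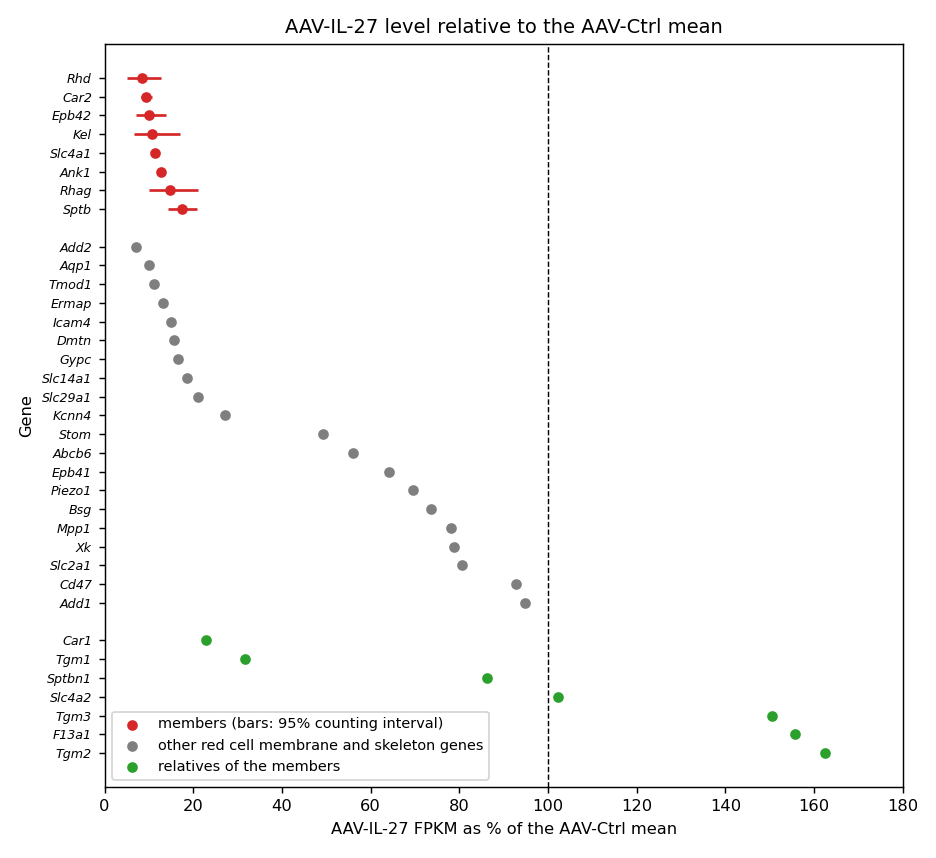
AAV-IL-27 FPKM as a percentage of the AAV-Ctrl mean, 1 point per gene, with 95% counting intervals for 7 members (all but Ank1). Members (red) lie between 8.37% and 17.4%, 20 of the other red cell membrane and skeleton genes (grey) between 7.07% and 94.9%, and relatives of the members (green) between 22.9% and 162%. The dashed line marks 100%.

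Relatives of the 8 genes, which mostly serve other cells, gave a comparison within some of the protein families only. Of 31 relatives in the table, 7 reached a mean FPKM of 1, with a median log2 difference of 0.03. Lower than both AAV-Ctrl libraries by at least 1 were 2 of them, against 2.32% of the 9130 genes. Of these 7, 4 were relatives of Epb42, and 0 were relatives of Ank1, of the Rh genes or of Kel. Slc4a2, a widely expressed anion exchanger, was at 19.07, 17.58 and 18.75 FPKM. Slc4a1 FPKM was 3.55, 3.10 and 0.369 times that of Slc4a2, so the order of both exchanger genes was turned. Sptbn1, the beta-spectrin of nucleated cells, was at 13.78, 15.62 and 12.68 FPKM, above Sptb in all 3 libraries. Ank2 and Ank3 were at or below 0.13 FPKM in each library, with a summed FPKM of 0.17, 0.07 and 0.03.

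Protein 4.2 belongs to the transglutaminase family, without its enzyme activity. In that family, Tgm2 was at 21.22, 22.65 and 35.64 FPKM, Tgm3 at 6.67, 5.15 and 8.90 FPKM and F13a1 at 2.05, 2.06 and 3.20 FPKM, all higher in AAV-IL-27 than in both AAV-Ctrl libraries, by less than 1 log2 unit. Tgm1 went with Epb42, at 5.47, 4.79 and 1.62 FPKM, a log2 difference of -1.22. Of the carbonic anhydrases, Car1, which red cells also carry, was at 14.44, 18.17 and 3.74 FPKM, a log2 difference of -1.86. The ratio of Car1 to Car2 FPKM was 0.173, 0.231 and 0.488. Rhcg, the Rh relative in the table, and 5 relatives of Kel had mean FPKM values under 1. Rhcg was at 0.26, 0.38 and 0.28 FPKM, and the summed FPKM of the Kel relatives was 1.39, 1.45 and 0.50.

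Other erythroid genes were read beside the 8, and their part in the values of the 8 was not tested. The summed globin FPKM in AAV-IL-27 was 2321, or 13.7% of the AAV-Ctrl mean, within the range of the 8 genes. Single globin genes are near-identical in part, so only their sum is given. Of 10 haem synthesis and iron import genes, 5 were lower, with Alas2 at 10.81 FPKM in AAV-IL-27. Of 10 erythroid regulators, 7 were lower, among them Klf1 at 0.53 and Gata1 at 0.54 FPKM in AAV-IL-27. The same rule called 2.32% of the 9130 genes. Nothing is read from these counts, since the lists were chosen with earlier results known. Nfe2, also used by neutrophils, was at 298.90, 307.18 and 303.71 FPKM.

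Genes outside all lists were ranked by likeness to the 8, as the distance between their log2 ratios (AAV-Ctrl 2 over AAV-Ctrl 1, and AAV-IL-27 over the AAV-Ctrl mean, without a pseudocount) and the medians of the 8, over 3 libraries and 8945 genes. The nearest 5 were Aldh1a1 (4.74, 4.37 and 0.53 FPKM), Myl9 (2.63, 2.40 and 0.26 FPKM), Cldn13 (7.93, 8.32 and 0.94 FPKM), Slc43a1 (4.65, 5.00 and 0.51 FPKM) and Tspan33 (9.36, 8.62 and 0.88 FPKM). Their distances ran from 0.105 to 0.189 log2 units. The likeness rests on 3 libraries and says nothing of shared control.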

How the data were processed

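RNA was measured in 3 libraries, 2 AAV-Ctrl and 1 AAV-IL-27, grouped by the sample titles. The authors enriched mRNA with oligo-dT, made dUTP-marked cDNA, sequenced it on DNBSEQ and deposited FPKM values per gene with 2 decimals. The submitters' notes name the mm10 build. The aligner, the counter and its use of strand are not given in the sources used here. In the table, 1 column whose name marks it as a further AAV-IL-27 replicate fits none of the listed samples and was left unused, and 1 of 16073 rows has no symbol and was left out. Members and gene lists were chosen with earlier results of these data known. All members were named. Of the lists of other membrane genes and relatives, genes were named when they passed the threshold of 1 against both AAV-Ctrl libraries, when they lay closest to 0, or when a relative reached a mean FPKM of 1, and further genes were named after their values were seen. Some genes that met this rule are not reported here. The 5 most alike genes were taken by the distance given in the text.

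Differences were log2(FPKM + 1), with a pseudocount of 1, of AAV-IL-27 minus the AAV-Ctrl mean. No test was run, because 1 library has no replicate error. Per the labels, the AAV-Ctrl libraries came from 2 mice. To estimate depth, the spacing of low FPKM values was fitted over 9977 single-transcript genes of GENCODE M21 (GRCm38), with 60 nt subtracted from lengths. Of 237 to 266 low values per library, 80.7% to 84.2% lay within 0.2 of a whole fragment. Fragment numbers are estimates, so no count test was run. Intervals are exact (Poisson, or Clopper-Pearson on fragment shares) at 95% and cover counting error only. Promoters were from RefSeq (GRCm38.p6). Scripts were tested on simulated data. Alternatives were other pseudocounts, filters, thresholds and scalings, and leaving out each AAV-Ctrl library. The tools were scipy 1.17.1, pandas 2.3.3, numpy 2.4.6 and, for plots, matplotlib 3.10.9, under Python 3.11.15.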

Additional observations from a re-analysis of the deposited data

How the results depend on the processing

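With 1 AAV-IL-27 library, each value rests on that library. Of 56 single-gene differences of the 8 genes under alternatives, 41 moved by less than the AAV-Ctrl SD and 15 by more, and all stayed negative, from -3.56 to -1.45. Leaving out an AAV-Ctrl library moves a single-gene difference by less than that SD by construction, so nothing is read from those values among the 41. The members' median of -1.93 turned to -3.01 under a pseudocount of 0.1 and -3.16 with 0.01, which widen low genes by construction. The number of the 8 genes that were lower was 3 at a threshold of 2, and 3 of the 3 left with a mean FPKM of at least 5. For the other membrane genes, the median of -1.11 became -1.96 with a pseudocount of 0.1, -2.04 with 0.01, -0.92 with no filter (27 genes), -0.52 at a mean FPKM of at least 5 (10 genes) and -1.10 with equal FPKM totals, and it lay between -1.06 and -1.05 without either AAV-Ctrl library. For the relatives, the median of 0.03 turned to -0.014 with no filter and ranged from -0.023 to 0.088 when an AAV-Ctrl library was left out. It changed sign without AAV-Ctrl 2 (-0.023). With either AAV-Ctrl library left out, this median was the value of 1 gene, Slc4a2. The AAV-IL-27 FPKM of Slc4a2, 18.75, lay between AAV-Ctrl 1 (19.07) and AAV-Ctrl 2 (17.58). Of all genes, 212 were lower, which became 396 and 425 with pseudocounts of 0.1 and 0.01, 93 at a mean FPKM of at least 5, and 640 and 39 at thresholds of 0.5 and 2, and 243 to 294 without an AAV-Ctrl library. The 28 higher genes became 42 and 46 with those pseudocounts, 143 and 5 at thresholds of 0.5 and 2, and 40 to 49 without an AAV-Ctrl library. Leaving the globin genes out of the totals left the members' median at -1.93. No paired analysis was run, because a single AAV-IL-27 library was analysed.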
